A study of Mus musculus with 6 samples.

Results

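Sphingosine-1-phosphate (S1P) is a signalling lipid that cells make from sphingosine, release, sense and break down. The 8 genes described here cover each of these steps: the kinases Sphk1 and Sphk2, the exporter Spns2, the S1P lyase Sgpl1, the S1P phosphatase Sgpp1 and the receptors S1pr1, S1pr2 and S1pr3. They were chosen by pathway role, and the set was put together with the lower Spns2 counts of the treated libraries already known. Of the 8 symbols, 7 are among the 15528 genes listed in the count table and 5 had enough counts to be tested. S1pr3 is not listed there under this symbol or a synonym. Because this contrast helped to choose them, the values of the members are given as a description, without p-values. Their calls and intervals are part of that description.

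The RNA was that of mouse cells, lymphatic endothelial by their label. There were 3 controls and 3 libraries of cells given red blood cells, all at 24 h, and stranded poly(A) libraries were made from TRIzol-extracted RNA. The labels give no strain, no source or number of the red blood cells and no treatment of the controls, and they do not say that the replicates were separate cultures. The series title places the cells in work on brain injury after subarachnoid hemorrhage in mice.

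Lymphatic endothelial cells are a main source of the S1P in lymph. Spns2 carries the lipid out of these cells, and lymphocytes leave lymph nodes along the resulting gradient with the receptor S1pr1. Red blood cells supply most of the S1P in plasma and release it through another transporter, Mfsd2b. Inside cells, Sgpp1 returns S1P to sphingosine, whereas Sgpl1 cleaves it for good.

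Total counts per library ranged from 17263359 to 18381419, and control replicate 2 stood farthest from its group (SD of its log2 deviations 0.17, against 0.11 and 0.10 in control replicates 1 and 3 and 0.06 in each treated library). Calls that depend on it are given with and without it. Of the 14 markers of lymphatic endothelium 9 are listed, and of 15 pan-endothelial markers also 9. Over the 3 controls, Nrp2 had 14498 counts, Nr2f2 8630, Eng 5303, Stab1 1644, Pecam1 802 and Flt4, the lymphatic VEGF-C receptor, 193. Of the other 12 listed markers Flt1 had 31 counts and none of the rest more than 8, with 6 for Pdpn, 7 for Cdh5 and 0 for Kdr, Fli1 and Itga9. Prox1 and Lyve1 are not listed. The markers are thus mixed: these 6 were expressed, whereas the defining genes Prox1, Lyve1, Pdpn and Cdh5 were not listed or near 0, and the cells are called lymphatic endothelial by label only. Some markers of other cell types were higher: over the controls Col1a2 had 24805 counts, Krt8 23988 and Msln 9997. Others of those lists were not, with 6 counts for Col1a1 and 0 for Krt5 and Wt1, while Epcam is not listed. The epithelial and mesothelial sum was 658 to 738 CPM in the controls, against 400 to 503 CPM for the lymphatic list.

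The start regions of the members differ in base composition, and 2 of them show the range: Spns2, the member called lower with red blood cells, and Sgpl1, the member highest per length. The 250 bases before the RefSeq start of Spns2 (chr11:72475028-72475277, minus strand) and of Sgpl1 (chr10:61147685-61147934, minus strand) are printed from the GRCm38.p6 assembly, 5′ to 3′, with each CpG in capitals.
Spns2: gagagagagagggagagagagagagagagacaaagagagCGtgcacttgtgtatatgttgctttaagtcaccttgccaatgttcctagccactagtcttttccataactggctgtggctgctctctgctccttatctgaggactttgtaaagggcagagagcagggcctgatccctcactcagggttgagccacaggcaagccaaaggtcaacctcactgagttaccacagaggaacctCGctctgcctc
Sgpl1: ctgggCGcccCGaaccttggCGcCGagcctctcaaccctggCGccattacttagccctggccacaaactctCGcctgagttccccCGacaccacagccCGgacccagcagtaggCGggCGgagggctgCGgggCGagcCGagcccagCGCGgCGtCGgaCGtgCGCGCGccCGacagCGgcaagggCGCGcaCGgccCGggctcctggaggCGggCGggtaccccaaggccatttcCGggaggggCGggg
The Spns2 window held 2 CpG, and 18.8% of the 32851 RefSeq windows of this length held fewer. The Sgpl1 window held 31, more than 94.8% of windows. Of the other members, the Sgpp1 window held 24 CpG, the windows at the starts of Sphk2 held 27 and 20, and that of S1pr2 held 14 (median of all windows 6). The window of S1pr3 held 9 and the 5 windows of Sphk1 held 4 to 19. On both strands, the Spns2 window had 1 match to the CCAAT box (CCAAT), which 33.8% of all windows hold, and none to the GC box (GGGCGG, in 32.7%), the TATA box (TATAAA, in 12.4%), the AP-1 motif (TGANTCA, in 6.75%), the E box (CACGTG, in 6.02%), the KLF core (CACCC, in 52.0%) or the NF-kB motif (in 3.90%). The Sgpl1 window had 3 GC boxes, which overlap CpG, and none of the other motifs. These matches describe letters only. RefSeq entries were found for 7 of the 8 members by symbol.

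Export. Spns2 RNA was lower in each of the 3 libraries with red blood cells. Spns2 had 213, 231 and 224 counts in control replicates 1 to 3 and 131, 130 and 148 in the treated replicates, that is 12.3, 12.6 and 12.6 against 7.28, 7.09 and 8.22 CPM (counts scaled to the total of the library). The highest treated library lay well under the lowest control library. The means were 12.5 ± 0.13 and 7.53 ± 0.60 CPM (SD, n = 3 each), a log2 fold change of -0.73 ± 0.09 (SE; 95% interval -0.93 to -0.52), or 39.6% lower. In these bulk libraries fewer cells that express a gene and less RNA per cell cannot be told apart.

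The spread of Spns2 over the 3 controls, a coefficient of variation of 1.03%, was smaller than the 6.70% that counting alone gives at its mean count. In the treated libraries it was 8.01% against 8.56%. The standard error from the fit, which borrows its spread from all genes, is therefore the safer measure of error for Spns2 than the SD of its controls. With each library left out in turn the log2 fold change lay between -0.79 and -0.69, and without control replicate 2 it was -0.72.

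Only 26 of the 11208 tested genes had a lower fitted fold change than Spns2, and just 1 of these, the surface antigen gene Ly6a (named after its value was seen), passed the threshold of edgeR's quasi-likelihood test (Benjamini-Hochberg adjusted p of 0.05 over all tested genes). Among the 5 tested members Spns2 was called lower and none was called higher. Over all tested genes 1.46% were called in either direction and 0.303% lower. Since Spns2 helped to choose the set, this count is a description.

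**Figure D1:**
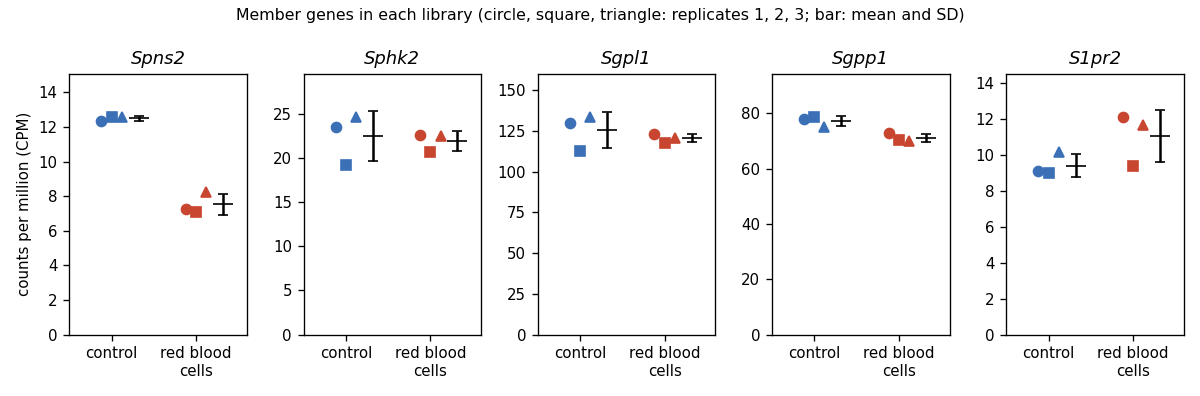
CPM of the 5 tested members in each of the 6 libraries (circles, squares and triangles are replicates 1, 2 and 3; the bar is the mean with its SD). The 3 treated libraries of Spns2 lie between 7.09 and 8.22 CPM and its controls between 12.3 and 12.6 CPM, while the groups of Sphk2, Sgpl1 and S1pr2 overlap.

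No other tested exporter was called. Spns1, a relative of Spns2 that acts in lysosomes, had 47.4 ± 1.01 CPM in the controls and 47.5 ± 2.14 CPM with red blood cells (log2 fold change 0.00 ± 0.06 SE, 95% interval -0.13 to 0.14). Within a library, the ratio of Spns2 to Spns1 in FPKM (fragments per kilobase of gene model, scaled to the library) was 0.225, 0.238 and 0.229 in the controls and 0.128, 0.137 and 0.152 with red blood cells. This ratio does not depend on how libraries are scaled, and its groups did not overlap. Since Spns2 helped to choose the set, this ratio and those of Spns2 to Sphk2 and S1pr2 below mostly restate its lower counts. They are given as a description. Spns3, another relative, was close to silent with 19 and 11 counts over the groups and was not tested. It had 6, 7 and 6 counts in the controls and 3, 3 and 5 with red blood cells.

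Mfsd2b, the S1P exporter of red blood cells, had 49 counts over the controls and 50 over the treated libraries (log2 fold change 0.01 ± 0.30 SE, 95% interval -0.66 to 0.68). In the same libraries the summed level of 10 erythroid markers, hemoglobins and Alas2 among them, went from between 3.36 and 3.87 CPM in the controls to between 538 and 623 CPM with red blood cells, and all 5 tested ones were called higher. Slc4a1 and Epb42 had 0 counts in the controls and 2 counts each over the treated libraries. The erythroid markers held at most 0.0623% of the counts of a treated library. With them left out before scaling, the log2 fold change of Spns2 was -0.73, which leaving out so small a share could hardly alter.

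Synthesis. Sphk2, which acts mainly in the nucleus and at internal membranes, was the kinase above the counting floor in these cells. It had 23.5, 19.3 and 24.7 CPM in the controls and 22.7, 20.7 and 22.5 CPM with red blood cells. The groups overlapped, and control replicate 2 was the lowest of all 6 libraries. The log2 fold change was -0.03 ± 0.10 SE, with a 95% interval of -0.26 to 0.19, and it took either sign as single libraries were left out (-0.13, without control replicate 2, to 0.04). The ratio of Spns2 to Sphk2 FPKM was 0.70 ± 0.10 in the controls and 0.43 ± 0.03 with red blood cells (SD, n = 3 each), and no treated library reached the lowest control.

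Sphk1, the cytosolic kinase that moves to the plasma membrane, had 1 count in all 6 libraries together, in control replicate 1. A count of 0 over a whole group allows up to 3 counts, or 0.055 CPM over the treated libraries and 0.056 CPM over the controls. Both groups were at or under this floor in counts, and no fold change is given. This bound is that of 0 counts, and the 1 count of the controls allows somewhat more. The floor covers counting error alone, because PCR copies of 1 molecule were not marked.

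Breakdown. Sgpl1, the lyase, had 130, 113 and 134 CPM in the controls and 123, 118 and 121 CPM with red blood cells. The treated libraries lay inside the range of the controls, of which replicate 2 was again the lowest. The log2 fold change was -0.05 ± 0.07 SE (95% interval -0.22 to 0.11), and Sgpl1 was not called. Without control replicate 2 it was -0.13 ± 0.04 SE and Sgpl1 was called lower, in a fit that called 7.96% of 11297 tested genes.

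Sgpp1, the phosphatase of the endoplasmic reticulum, had 77.8, 78.6 and 75.1 CPM in the controls and 72.9, 70.2 and 70.1 CPM with red blood cells. Its groups did not overlap, but the gap was narrow. The log2 fold change was -0.12 ± 0.05 SE (95% interval -0.24 to 0.01), and Sgpp1 was not called, with all 6 libraries or without control replicate 2. Libraries of the groups did not overlap for 2 of the 5 tested members, Spns2 and Sgpp1, and for 19.6% of all tested genes. The FPKM ratio of Sgpl1 to Sgpp1 was 1.27 ± 0.14 and 1.32 ± 0.02 (SD, n = 3 each), with overlapping groups.

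Receptors. S1pr2, which couples to G12 and G13 proteins and RhoA, was the receptor above the floor. It had 157, 165 and 181 counts in the controls and 218, 172 and 210 with red blood cells, or 9.09, 8.98 and 10.1 against 12.1, 9.38 and 11.7 CPM. Treated replicates 1 and 3 were above every control, and treated replicate 2 fell inside the control range. The log2 fold change was 0.23 ± 0.12 SE (95% interval -0.03 to 0.50), without a call. It was 0.34 without treated replicate 2 and 0.16 without treated replicate 1.

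S1pr1, the receptor through which S1P strengthens endothelial junctions and guides lymphocytes, had 1 count over the controls and 1 over the treated libraries, both in replicate 1. S1pr4, a receptor mostly of blood cells, had 0 and 1 counts. S1pr5, like S1pr3, is not listed. Receptors other than S1pr2 were thus at or under the floor of 3 counts in both groups where they are listed.

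Per length, the members fell into 3 tiers in FPKM. Sgpl1 (28.8 FPKM on average over 6 libraries) and Sgpp1 (22.3) were highest, followed by Sphk2 (5.22), Spns2 (2.94) and S1pr2 (2.61). Sphk1 and S1pr1 stayed under 0.02 FPKM in every library. Spns2 lay above S1pr2 in the controls, with 3.67 ± 0.04 against 2.40 ± 0.16 FPKM, and the libraries of the 2 genes did not overlap there. With red blood cells Spns2 had 2.21 ± 0.18 and S1pr2 2.82 ± 0.37 FPKM, and their libraries overlapped. The FPKM ratio of Spns2 to S1pr2 was 1.56, 1.61 and 1.43 in the controls and 0.69, 0.87 and 0.81 with red blood cells.

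**Figure D2:**
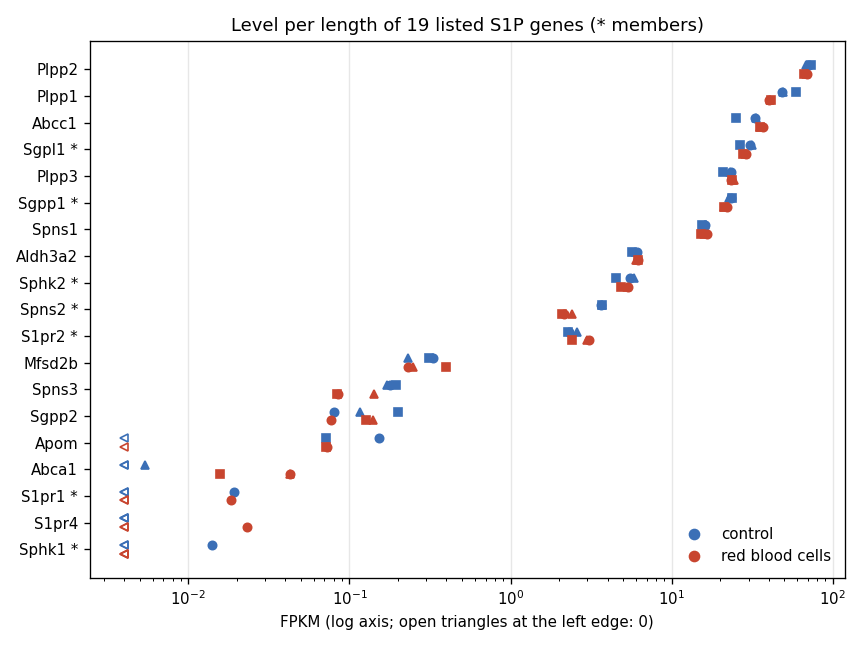
FPKM of the 19 listed genes of S1P synthesis, export, breakdown and reception in each library, on a log axis (shapes as for the replicates above, open triangles for libraries at 0). Spns2 is above S1pr2 in the controls, where it has 3.67 FPKM on average, while with red blood cells it has 2.21 FPKM on average and only its replicate 3 reaches into the range of S1pr2, and Sphk1 and S1pr1 sit at the bottom.

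No other gene of the pathway passed the test. The 5 lists of such genes hold 80 symbols, of which 73 are listed and 61 were tested. None of the 61 was called by edgeR, and their median log2 fold change was 0.01, against 0.00 over all tested genes. At an unadjusted p under 0.05 there were 8 (6 lower, 2 higher), or 8 of 61 against 9.99% of all tested genes. For 17 of the 61, or 27.9%, the groups did not overlap, against 19.6% of all tested genes. DESeq2 called 3 of them lower, Plpp1, St3gal5 and Rhob, in a fit that called 2.11% of all genes, and limma voom called 0. Without control replicate 2 edgeR called 8 of 62 tested pathway genes, 7 of them lower, in a fit that called 7.96% of all tested genes (473 higher and 426 lower). None of the 61 had a fold change as large as that of Spns2.

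Among 7 tested genes of S1P handling outside the members, the lowest fold change was that of Plpp1, a phosphatase that removes phosphate from S1P and other lipids at the cell surface. Plpp1 had 85.4, 105 and 87.2 CPM in the controls and 70.8, 73.1 and 71.6 CPM with red blood cells (log2 fold change -0.36 ± 0.08 SE, edgeR adjusted p = 0.090). Every treated library was under every control, and control replicate 2 was the highest. Its relatives Plpp2 and Plpp3 had log2 fold changes of -0.06 and 0.09 (-0.03 and 0.04 without control replicate 2), and Plpp2 was the most abundant gene of S1P handling per length, at 69.2 FPKM. Abcc1, a multidrug transporter that can also export S1P, had 184 ± 27.5 CPM in the controls and 216 ± 4.43 CPM with red blood cells (0.24 ± 0.10 SE, edgeR adjusted p = 0.47). Without control replicate 2 both were called, Abcc1 at 0.12 and Plpp1 at -0.26 on the log2 scale (edgeR adjusted p = 0.023 and 9.5e-06).

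Genes of this group with few counts were not tested. Abca1, a lipid transporter of the plasma membrane, had 0, 0 and 1 counts in the controls and 8, 3 and 8 with red blood cells. Each treated library exceeded each control, and the ratio of the summed counts was 18.7 (exact 95% interval 2.97 to 777, counting error only). Tested without a low-count filter, Abca1 had an edgeR adjusted p of 0.12. In the same treated libraries the pan-leukocyte gene Ptprc had 36 counts against 0 in the controls, and the part of leukocyte RNA in the Abca1 counts was not tested. Apom, the plasma carrier of S1P, had 3 and 2 counts, and Sgpp2, the second S1P phosphatase, had 31 and 27.

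Ceramide synthesis, the route that feeds the sphingosine pool, was expressed in both groups. Of its 11 tested genes 9 had negative and 2 positive log2 fold changes, from -0.12 to 0.09, with a median of -0.05. Cers2, the ceramide synthase of very long acyl chains, was the most abundant of them at 213 FPKM and had 557 ± 13.7 and 512 ± 13.9 CPM (-0.12 ± 0.05 SE, edgeR adjusted p = 0.50). Cers2 was called lower without control replicate 2 (adjusted p = 0.0070). Sptlc1, a subunit of the first enzyme of the route, had a log2 fold change of -0.06 and the desaturase Degs1 one of -0.05, which was 0.01 without control replicate 2.

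Enzymes that release sphingosine and ceramide varied within a similar range. The 10 tested genes of this list lay between -0.15 and 0.12, with a median of 0.03. The alkaline ceramidase Acer3 had 84.4 ± 4.94 and 75.8 ± 2.05 CPM (-0.15 ± 0.06 SE, edgeR adjusted p = 0.45) and the lysosomal acid ceramidase Asah1 100.4 ± 1.56 and 92.8 ± 1.69 CPM (-0.11 ± 0.05 SE, adjusted p = 0.54). Psap, the precursor of the saposins that help lysosomal lipid hydrolases, was the most abundant at 259 FPKM, with a log2 fold change of 0.03.

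Of the 9 tested genes that use ceramide, St3gal5, which makes the ganglioside GM3, came closest to the threshold. It had 60.6, 56.9 and 58.2 CPM in the controls and 48.8, 48.8 and 47.4 CPM with red blood cells (-0.28 ± 0.06 SE, edgeR adjusted p = 0.052). The groups did not overlap. The sphingomyelin synthase Sgms1 had 44.1 ± 1.68 and 38.3 ± 2.37 CPM (-0.20 ± 0.07 SE, adjusted p = 0.32), and B4galt5, which makes lactosylceramide, had 160 ± 11.8 and 179 ± 2.06 CPM (0.17 ± 0.06 SE, adjusted p = 0.42). Without control replicate 2, St3gal5 and Sgms1 were called lower (-0.30 and -0.23 on the log2 scale), and so was Sgms2, another sphingomyelin synthase (-0.17, against -0.07 with all libraries). B4galt5 had 0.11 in that fit and was not called.

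Signalling genes downstream of the receptors were plentiful, and 24 of 26 were tested. Their median log2 fold change was 0.04, and 15 were positive. Rhob, a small GTPase with roles in receptor trafficking, had 192, 212 and 197 CPM in the controls and 167, 158 and 165 CPM with red blood cells (-0.29 ± 0.06 SE, edgeR adjusted p = 0.052). All treated libraries were lower than all controls, and without control replicate 2 Rhob was called lower at -0.25. The guanine nucleotide exchange factor Arhgef12 was also called lower in that fit, at -0.11, but its log2 fold change was 0.06 with all libraries (233, 153 and 228 CPM in the controls against 213, 214 and 212), so its direction turned on control replicate 2. Klf2, a transcription factor that induces S1pr1, had 70, 105 and 83 counts in the controls and 67, 55 and 70 with red blood cells, or 4.81 ± 0.84 and 3.54 ± 0.47 CPM (-0.44 ± 0.17 SE, adjusted p = 0.40), with S1pr1 at the floor in both groups. Rac1 and Gnai2, through which S1pr1 signals, had log2 fold changes of -0.14 and -0.12, and Rock1, a kinase under RhoA, had 0.13 (adjusted p = 0.54, 0.54 and 0.50). Without control replicate 2 Rac1 had -0.07. Cd69, which removes S1pr1 from the surface of lymphocytes, had 0 and 2 counts.

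**Figure D3:**
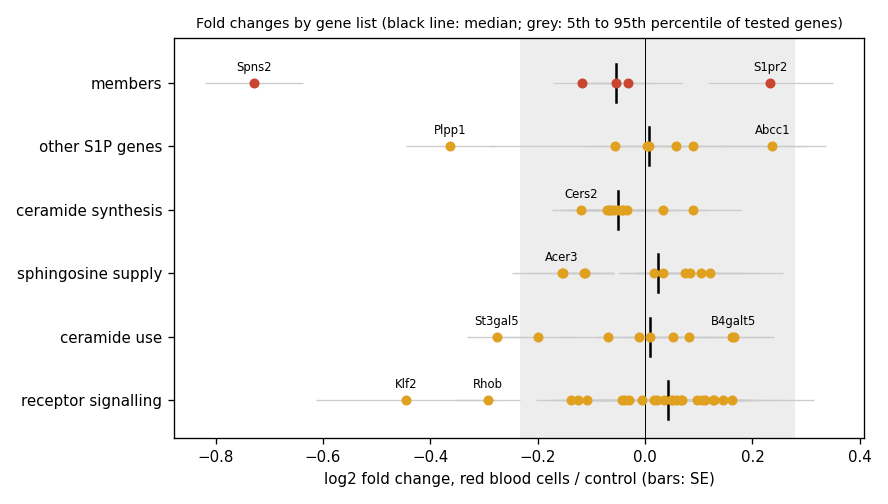
Log2 fold change (red blood cells over control) with its SE for the tested members and the tested genes of the 5 pathway lists; black lines are medians, and the grey band spans the 5th to 95th percentile of all tested genes, from -0.23 to 0.28. Spns2 at -0.73 lies farthest out, and Klf2, Plpp1, Rhob and St3gal5 are the 4 pathway genes below the band.

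**Figure D4:**
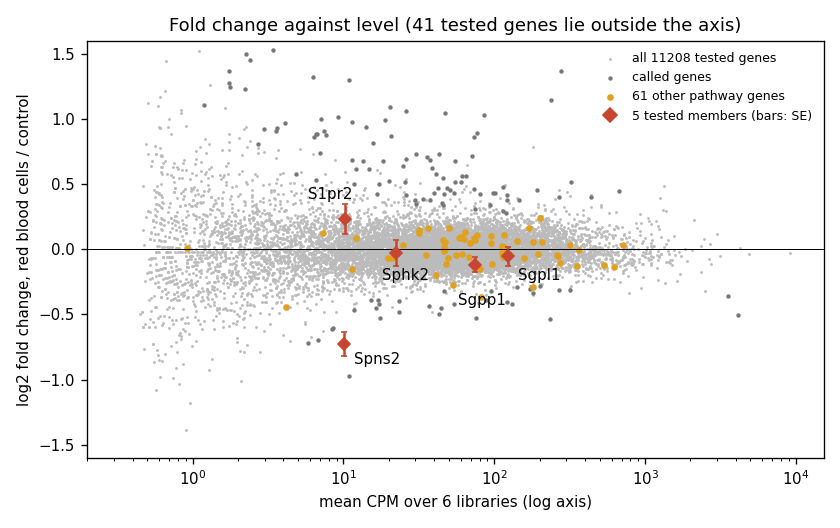
Log2 fold change against mean CPM (log axis) for all 11208 tested genes, with called genes in dark grey, pathway genes in orange and the 5 tested members in red with their SE; 41 genes lie outside the vertical axis. Spns2 at -0.73 sits below most genes of its level, and Sphk2, Sgpl1, Sgpp1 and S1pr2 lie between -0.12 and 0.23.

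Genes whose levels followed Spns2 most closely over the 6 libraries were ranked by Pearson correlation of log2(CPM + 0.1) among 9654 other tested genes of at least 5 CPM. The first 5 were Tcim (0.995), Aspa (0.992), Bcl2l1 (0.990), Ctnnal1 (0.989) and Myh14 (0.986). All had lower means with red blood cells, and 4 of them, Bcl2l1 being the exception, were called lower, against 0.303% of all tested genes. Because they were picked for following Spns2, their direction and calls largely follow from that choice. Aspa, which cleaves N-acetylaspartate, went from 12.3 ± 0.38 to 7.44 ± 0.92 CPM (SD, n = 3 each), a log2 fold change of -0.72 ± 0.10 SE against -0.73 for Spns2. Tcim, a regulator of transcription and immunity, went from 19.7 ± 0.35 to 14.7 ± 0.83 CPM. These points share libraries, and the group difference of Spns2 sets most of each correlation. For S1pr2 the first 5 were Fbxo46 (0.987), Pcif1 (0.980), Gna11 (0.976), Cep131 (0.969) and Twnk (0.959), none of them called.

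Some cell type markers also differed between the groups. In bulk RNA a change of cell numbers cannot be told from one of RNA per cell. Of 15 leukocyte markers 13 are listed, 6 were tested and 4 were called higher (Ptprc, Lyz2, Cd74 and Adgre1). These 4 had at most 6 counts in any control and passed the count filter only through the treated libraries. A higher call was thus close to fixed once they were tested. Over all 11208 tested genes 130 were called higher. The sum over all 13 was 42.3 to 48.7 CPM in the controls and 50.6 to 55.3 CPM with red blood cells. Most of it came from Csf1r (25.0 ± 2.72 and 24.7 ± 1.53 CPM) and Cd68 (20.6 ± 1.39 and 21.2 ± 0.80 CPM), which were tested and not called. Ptprc, Cd74, Adgre1 and Tyrobp were among the leukocyte markers at 0 in the controls. Ly6g had 2 counts there and 0 with red blood cells. Of the lymphatic markers Stab1 was called higher (30.9 and 63.5 CPM on average), and the sum over that list was 400 to 503 CPM and 562 to 594 CPM. Nrp2, which was not called, rose most in CPM, from 272 ± 52.5 to 361 ± 16.1. Without a call, Nr2f2 went the other way, from 161 ± 1.38 to 146 ± 3.46 CPM, and Flt4 had 3.62 and 3.52 CPM. The epithelial and mesothelial sum was 658 to 738 CPM and 614 to 636 CPM without a call, and the sums of endothelial, platelet and fibroblast and mural markers overlapped between groups. The part of these shifts in the change of Spns2 was not tested.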

How the data were processed

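Poly(A) RNA of 6 libraries was analysed, with groups and replicate numbers taken from the sample titles. The authors deposited raw counts per gene as whole numbers and FPKM values of the same 15528 symbols. The build GRCm39 is given in the submitters' processing notes. Neither aligner nor counting tool, strand setting or annotation is named (not given in the sources used here). Whether the counts separate reads of a gene from those of an antisense partner is therefore not known. FPKM served only for levels per length. The test was that of edgeR 4.0.16 (R 4.3.3): filterByExpr (minimum count 10, minimum total 15; 11208 genes kept), TMM scaling, glmQLFit and glmQLFTest across all tested genes, two-sided, with Benjamini-Hochberg adjustment and a threshold of 0.05. Intervals of fold changes use the test's degrees of freedom. As no label says that replicates were separate cultures, a p-value reflects only how these 3 libraries a group vary, possibly for technical reasons. Alternatives were RLE or no scaling, DESeq2 1.42.0, limma 3.58.1 voom, other filters, erythroid genes left out, the replicate number as a block, each library left out, limma on log2(FPKM + 1) or log2(FPKM + 0.1), and, chosen after seeing the data (control replicate 2), voom with library weights and a gene length offset. The members and lists were chosen with earlier results of these data known. Named are all members, called genes, the first 4 by p and the 3 highest by FPKM of each list (the text gives some of these), and the 5 genes most like Spns2 and S1pr2; Sgms2, Arhgef12, untested genes and single markers were named after their values were seen. The fit was tested on simulated data. Promoter windows came from RefSeq (GRCm38.p6), another build than that of the counts.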

Additional observations from a re-analysis of the deposited data

How the results depend on the processing

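Spns2 was called lower in all 19 alternatives, with log2 fold changes from -0.79 to -0.54. The smallest change came from log2(FPKM + 1), whose pseudocount shrinks low genes. These alternatives reuse the data through which Spns2 helped to choose the set, so its calls describe the dependence on processing only. Sphk2, Sgpp1 and S1pr2 were called in none of theirs, and Sgpl1 only without control replicate 2. The count of called genes, 164, was 651 with library weights, 339 with the length offset and between 62 (without treated replicate 2) and 899 (without control replicate 2) with a library left out; the cause was not tested. Without treated replicate 1 or 3 it was 72 or 79. Called pathway genes, 0 in the main analysis, numbered 1 without scaling (Rhob), 3 in DESeq2, 4 with library weights, 4 with the length offset (Plpp1, Sgms1, St3gal5 and Rhob in both), and 0 to 8 with a library left out. Signs of these named pathway genes turned: Arhgef12 (-0.088 and -0.042) with library weights and the length offset, Aldh3a2 (-0.017) and Cers6 (-0.026) with the length offset, Degs1 (0.0010 and 0.00045) and Rhoc (0.027 and 0.049) with library weights and the offset, and Ugcg (-0.012) with library weights. With a library left out Arhgef12 ranged from -0.11 to 0.16, Sgms2 from -0.17 to 0.013, Cers6 from -0.011 to 0.14, Degs1 from -0.087 to 0.0064, Rhoc from -0.082 to 0.037 and Ugcg from -0.030 to 0.033. Deviations of same-numbered libraries from their group means were hardly correlated (r = -0.07, 0.03 and 0.08 for replicates 1 to 3). The labels do not say whether such libraries were paired, and with 3 libraries a group these values cannot decide it. With the replicate block 126 genes were called, 13 of them lower against 34, Spns2 had -0.73 ± 0.10 SE and no pathway gene was called. With 130 to 231 counts per library, counting error limits Spns2 and S1pr2 most among the tested members.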
